A study of Homo sapiens with 15 samples.

Results

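Transcript levels of 10 receptor genes of the tumour necrosis factor (TNF) superfamily were followed in BEAS-2B cells exposed to PM2.5 (fine airborne particulate matter). The genes were chosen by name, with earlier results of these data known. They are the rows of the deposited count table whose Ensembl identifiers belong to TNFRSF10A, TNFRSF10B, TNFRSF10C, TNFRSF10D, TNFRSF11B, TNFRSF12A, TNFRSF1A, TNFRSF1B, TNFRSF21 and FAS, which makes 10 of the 58219 genes in the table. All 10 passed the filter on low counts.

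BEAS-2B is an immortalized line of human bronchial epithelial cells, so all samples share 1 genetic background and differ from primary epithelium. Cells grew on collagen-coated plastic in serum-free bronchial epithelial growth medium, and the particles came from Beijing air filters collected in winter and were extracted in water by sonication. In the 24-h protocol, cells were kept with medium alone (vehicle control) or with PM2.5 at 1 µg/cm2 or 30 µg/cm2, and were collected after 24 h. In the repeated protocol, cells received medium alone or 1 µg/cm2 of PM2.5 every day, with a wash between treatments, and were collected at the end of 7 days. The sample labels count 7 daily treatments and the study's methods count 6. Each of the 5 groups holds 3 libraries, which the labels give as 3 independent experiments, and the last number of a library's name marks its experimental batch.

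Receptors of this superfamily bind trimeric ligands and pass the signal to adaptor proteins at the inner face of the membrane. Some carry an intracellular death domain through which caspases can be activated, some recruit TRAF adaptors and lead to NF-kappaB and kinase signalling, and decoy receptors bind the ligand without passing on a death signal. TRAIL, the ligand encoded by TNFSF10, binds death receptors and decoys alike, and Fn14, the receptor encoded by TNFRSF12A, binds TWEAK, the product of TNFSF12, and is known in epithelia for its induction on injury. Airway epithelial cells express several of these receptors, and their surface amount is one of the factors that set how cells respond to ligands made by leukocytes.

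Expression is given as CPM, the counts of a gene per 1000000 counts of its library after TMM normalization in edgeR. The libraries held between 21460981 and 34724765 gene counts (median 29243177), so that the floor of 3 counts corresponds to 0.0864 to 0.140 CPM before TMM scaling. This floor covers counting error only. A gene was called where edgeR's quasi-likelihood test gave a Benjamini-Hochberg adjusted p below 0.05 over the 17599 tested genes and the log2 fold-change was 0.6 or more in size. The 3 libraries of 24-h experiment 2 stood apart. Within a 24-h group, their chi-square per degree of freedom against the other experiments was 76.6 to 181, and that between experiments 1 and 3 was 4.44 to 18.1. In the repeated protocol, PM2.5 replicate 3 differed from its 2 partners by 19.7 and 25.5, and these partners differed from each other by 4.69. Of 10 epithelial markers, 10 reached 1 CPM in all 15 libraries, as did 8 of 10 mesenchymal markers. Among leukocyte markers, 1 of 8 (CD14) reached it, PTPRC stayed at 2 counts or fewer, LYZ was listed at 0, and ITGAM and CSF1R reached up to 2.43 and 1.25 CPM. Of 6 endothelial markers none did. EMCN and CDH5 had at most 1 and 2 counts, and KDR was at 0.404 to 3.30 CPM. Summed epithelial markers were at 3988 to 4425 CPM in 24-h controls and 1772 to 2890 CPM at 30 µg/cm2, and at 3544 to 4299 CPM in controls and 2538 to 2745 CPM after daily exposure. Summed mesenchymal markers were at 1842 to 2978 and 1741 to 2691 CPM in the first pair of groups and at 962 to 1068 and 635 to 667 CPM in the second. The corresponding leukocyte sums were 11.6 to 13.9 and 4.60 to 18.5 CPM, then 11.7 to 13.6 and 7.61 to 10.6 CPM, and the endothelial sums 2.47 to 3.06 and 0.936 to 1.15 CPM, then 1.37 to 2.06 and 0.635 to 0.907 CPM. The part of these markers in the results was not tested. RNA came from whole cultures, where a change in the share of a cell state and a change of RNA per cell cannot be told apart.

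The genes of the 4 membrane TRAIL receptors lie side by side on chromosome 8 (GRCh38), at 23020133 to 23069179 for TNFRSF10B, 23084355 to 23117437 for TNFRSF10C, 23135588 to 23164030 for TNFRSF10D and 23190452 to 23225126 for TNFRSF10A. TNFRSF11B is on the same chromosome at 118923557 to 118952200. TNFRSF12A (ENSG00000006327.13) is on chromosome 16 at 3018445 to 3022383, TNFRSF1A on chromosome 12 at 6328757 to 6342114, TNFRSF1B on chromosome 1 at 12167003 to 12209228, TNFRSF21 on chromosome 6 at 47231532 to 47309905 and FAS on chromosome 10 at 88990582 to 89015785. The values of a gene cover all its exons.

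Levels were divided by exon length for comparison between genes. This length covers all annotated exons of a gene rather than the transcripts expressed, so the order is approximate. In 24-h controls, TNFRSF12A had the highest level per length, with 81.9 CPM per kb ± 25.9 (SD, n = 3). TNFRSF1A followed with 33.5 ± 1.35 and TNFRSF10B with 33.1 ± 2.73 CPM per kb, and the libraries of these genes overlapped. TNFRSF21, FAS, TNFRSF10D and TNFRSF10A formed a middle group, with means from 12.6 down to 5.42 CPM per kb, in which each gene overlapped the next. TNFRSF11B, TNFRSF10C and TNFRSF1B were lowest, at 0.357, 0.189 and 0.127 CPM per kb, without overlap between neighbours. In controls of the repeated protocol the order at the top differed, with TNFRSF10B at 50.2 ± 1.34, TNFRSF12A at 38.8 ± 1.78 and TNFRSF1A at 18.8 ± 0.366 CPM per kb, again without overlap. The 3 low genes rest on few reads, with 8 to 54 counts per library for TNFRSF10C, 12 to 38 for TNFRSF11B and 9 to 68 for TNFRSF1B.

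**Figure D1:**
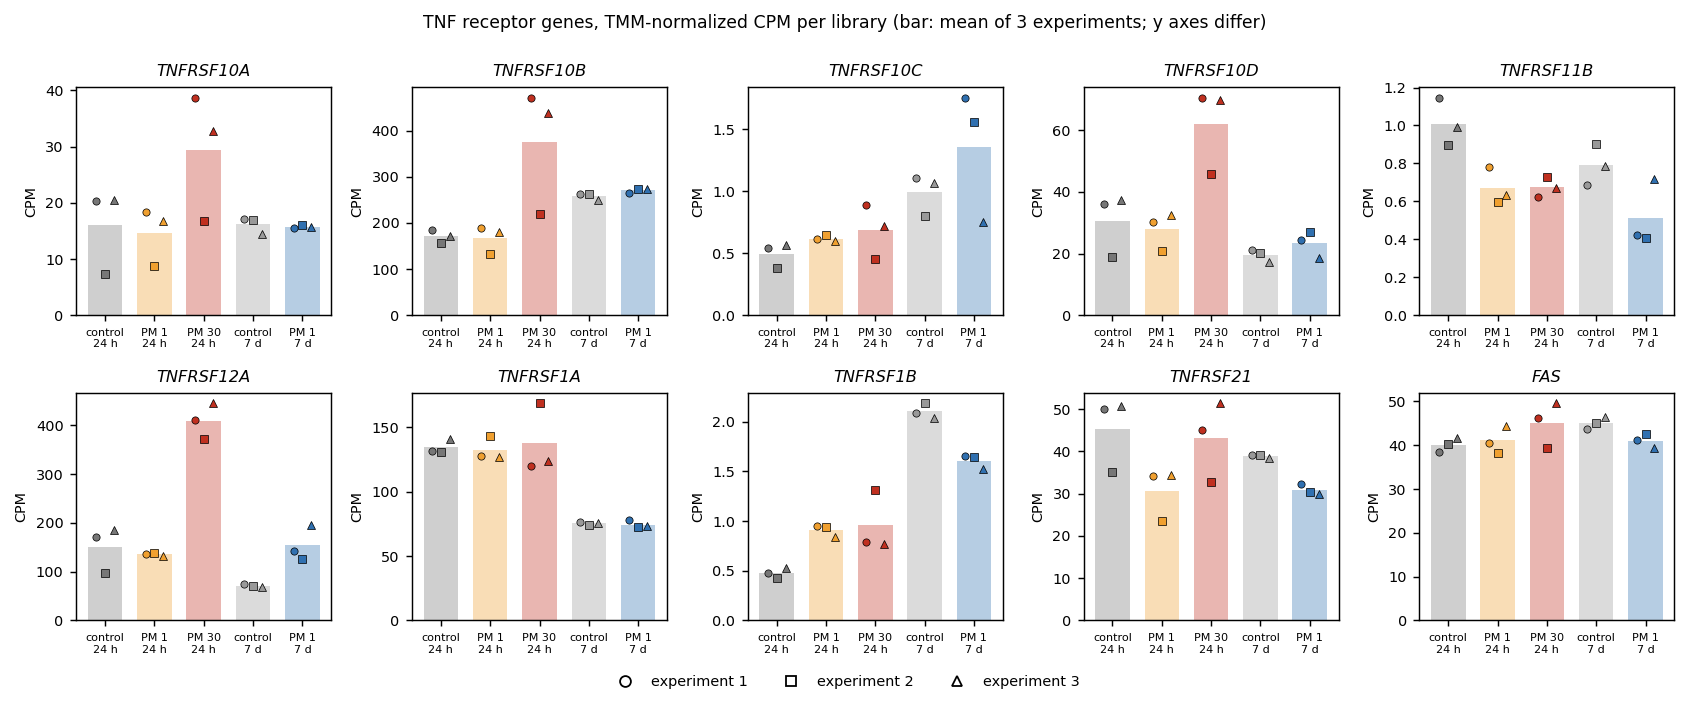
Expression of the 10 receptor genes in each library (y axis: TMM-normalized CPM, scales differ between panels; x axis: the 5 groups). Points are libraries shaped by experiment number, and bars are means of 3 libraries. TNFRSF12A stood at 372 to 445 CPM after 30 µg/cm2 and at 96.8 to 186 CPM in 24-h controls.

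After 24 h with 30 µg/cm2 of PM2.5, 4 of the 10 receptor genes rose and none fell. They were TNFRSF12A, TNFRSF10B, TNFRSF10D and TNFRSF1B. Among all tested genes 8.07% were called in this comparison. The median log2 fold-change of the 10 genes was 0.66, beside 0.03 over all tested genes. With a replicate block for the experiment number 5 were called, and TNFRSF10A was the added gene. The libraries of both groups did not overlap in 5 of the 10 genes, against 22.8% of all tested genes. Since the 10 genes were chosen with earlier results of these data known, these comparisons with all tested genes are a description only.

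TNFRSF12A, the gene for Fn14, changed most in this comparison. Its level was 171, 96.8 and 186 CPM in the control libraries of experiments 1, 2 and 3, and 412, 372 and 445 CPM after 30 µg/cm2. Every exposed library was above every control library, and the low control of experiment 2 was matched by the lowest exposed value. The log2 fold-change was 1.44 ± 0.21 (SE), with an adjusted p of 0.000729 in edgeR's quasi-likelihood test. Within experiments, the log2 ratio was 1.27, 1.94 and 1.26. Without the libraries of 24-h experiment 2, the log2 fold-change was 1.25 ± 0.14, with an adjusted p of 3.25e-06. No 50-base stretch of its annotated transcripts occurs in another annotated gene, and the gene that overlaps it on the other strand, CLDN6, had 26 counts in all libraries together.

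TNFRSF10B encodes the TRAIL death receptor DR5. It stood at 184, 156 and 173 CPM in the controls of experiments 1, 2 and 3, and at 471, 219.9 and 439 CPM after 30 µg/cm2. The groups did not overlap, but experiment 2 gave a smaller ratio, with a log2 ratio of 0.49 against 1.35 and 1.35. The log2 fold-change was 1.14 ± 0.22, with an adjusted p of 0.00502. A fit restricted to the 9 libraries of the 24-h protocol gave the same size, 1.14 ± 0.28, and ended the call with an adjusted p of 0.0638. TNFRSF10B overlaps RHOBTB2 on the opposite strand, and the strand used in counting is not given in the sources used here. RHOBTB2 moved the other way, from 49.2–52.2 CPM in controls to 24.1–29.3 CPM, with a log2 fold-change of -0.96 ± 0.10 and an adjusted p of 6.52e-05.

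TNFRSF10D encodes the decoy DcR2, which has a truncated death domain. It was at 35.9, 18.7 and 37.3 CPM in controls and at 70.4, 45.7 and 69.8 CPM after 30 µg/cm2. All exposed libraries were above all controls, and experiment 2 was the lowest of both groups. The log2 fold-change was 1.01 ± 0.26 with an adjusted p of 0.0235, and the ratios within experiments were 0.97, 1.29 and 0.91 on the log2 scale. This call was lost in the fit of the 24-h libraries alone, at an adjusted p of 0.109, and without 24-h control replicate 2, exposed replicate 1 or exposed replicate 3, at adjusted p of 0.0682, 0.103 and 0.0985. Without the whole of 24-h experiment 2 it was kept, with 0.92 ± 0.13 and an adjusted p of 4.94e-05.

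TNFRSF10A, which encodes the death receptor DR4, was at 20.3, 7.25 and 20.4 CPM in controls and at 38.6, 16.8 and 32.7 CPM after 30 µg/cm2. The exposed library of experiment 2 lay below the controls of experiments 1 and 3, so that the groups overlapped. The log2 fold-change of 0.87 ± 0.37 did not pass, with an adjusted p of 0.165. Compared within experiments, the log2 ratios were 0.93, 1.21 and 0.68, and with the replicate block the gene was called, at 0.92 ± 0.12 and an adjusted p of 9.96e-05. Leaving out 24-h experiment 2 also gave a call, at 0.80 ± 0.11 and an adjusted p of 2.28e-05. TNFRSF10A overlaps TNFRSF10A-DT and TNFRSF10A-AS1 on the opposite strand, 12.5% of its 50-base stretches occur in other annotated genes, and its values are uncertain to that extent.

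The other TRAIL-binding genes did not pass. TNFRSF10C encodes DcR1, a decoy held by a lipid anchor, and was at 0.542, 0.377 and 0.567 CPM in controls and 0.888, 0.451 and 0.718 CPM after 30 µg/cm2 (log2 fold-change 0.45 ± 0.37, adjusted p 0.515). Of its 50-base stretches 28.0% occur in other annotated genes, which makes its low values uncertain. TNFRSF11B encodes osteoprotegerin, a secreted decoy for RANKL that also binds TRAIL. It was at 1.14, 0.895 and 0.992 CPM in controls and 0.625, 0.728 and 0.670 CPM after 30 µg/cm2. The groups did not overlap, and the log2 fold-change of -0.59 ± 0.28 had an adjusted p of 0.228.

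**Figure D2:**
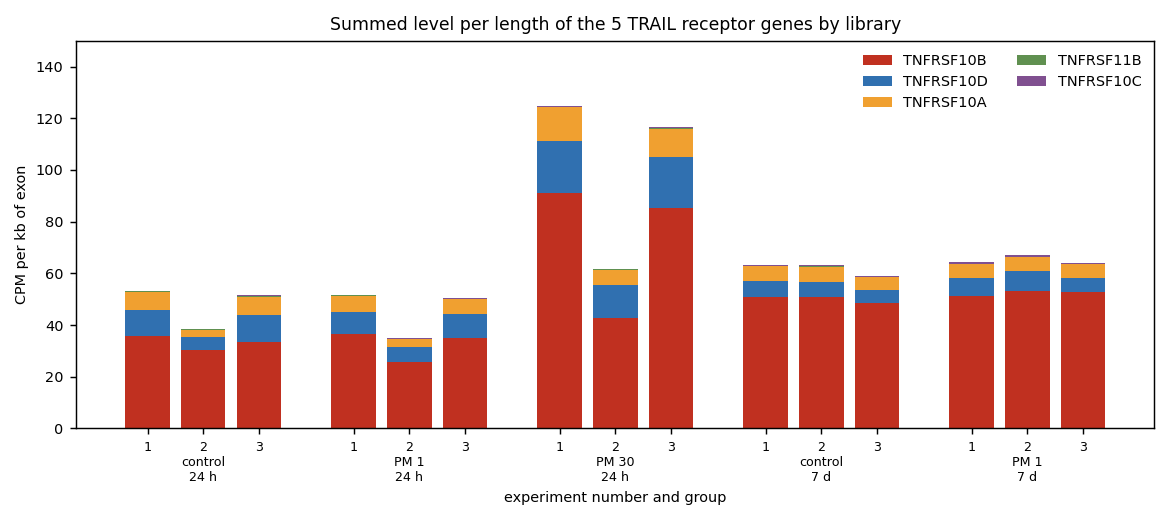
Level per length (y axis: CPM per kb of exon) of the 5 genes for TRAIL receptors, stacked for each library (x axis: experiment number within each group). The stack was highest after 30 µg/cm2, with 61.7 to 125 CPM per kb against 38.5 to 53.3 in 24-h controls, and TNFRSF10B formed its largest portion in all 15 libraries.

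Summed over the 5 genes, the level per length was 38.5 to 53.3 CPM per kb in 24-h controls, 34.9 to 51.8 after 1 µg/cm2 and 61.7 to 125 after 30 µg/cm2. TNFRSF10B made up 70.2% ± 7.39 (SD, n = 3) of this sum in 24-h controls and 71.8% ± 2.30 after 30 µg/cm2. The portion of the decoy TNFRSF10D was 17.8% ± 3.53 and 17.9% ± 2.64. The portions of these genes and of TNFRSF10A (10.9% ± 3.92 and 9.75% ± 0.654) differed by less than the spread between libraries. Those of both low genes did not overlap between the groups, with 0.393% ± 0.0238 and 0.261% ± 0.0232 for TNFRSF10C and 0.754% ± 0.0706 and 0.266% ± 0.132 for TNFRSF11B. The portion of TNFRSF10C was lower because the sum was higher. Its own level was not lower (log2 fold-change 0.45 ± 0.37), and it rests on 8 to 27 counts per library in these groups. In controls of the repeated protocol, TNFRSF10B held 81.2% ± 0.954 and TNFRSF10D 8.94% ± 0.561, and the corresponding values after daily exposure were 80.6% ± 1.78 and 10.1% ± 1.71.

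Both receptors for TNF itself were measured. TNFRSF1A encodes TNFR1, which has a death domain and is found on most cells, and TNFRSF1B encodes TNFR2, which has none and is best known from leukocytes. TNFRSF1A was at 132, 131 and 141 CPM in 24-h controls and 119.8, 169 and 124 CPM after 30 µg/cm2, with overlapping groups and a log2 fold-change of 0.03 ± 0.12 (adjusted p 0.917). TNFRSF1B was at 0.482, 0.424 and 0.531 CPM in controls and 0.789, 1.32 and 0.766 CPM after 30 µg/cm2. All exposed libraries were higher, experiment 2 most of all. The log2 fold-change was 0.99 ± 0.26 with an adjusted p of 0.0256. It rests on 9 to 16 counts per control library and 16 to 38 per exposed library. Without 24-h experiment 2 the value was 0.61 ± 0.31 with an adjusted p of 0.146, and the call was also lost without any of the 3 control libraries or without exposed replicate 2, at adjusted p of 0.0539 to 0.116. It was lost too without the filter on low counts (0.194) and in the fit of the 24-h libraries alone (0.160).

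TNFRSF21, the gene for death receptor 6, was at 49.9, 35.1 and 50.6 CPM in controls and 45.1, 32.7 and 51.3 CPM after 30 µg/cm2 (log2 fold-change -0.07 ± 0.19, adjusted p 0.865). FAS, which encodes the receptor for FAS ligand, was at 38.6, 40.4 and 41.6 CPM and at 46.2, 39.3 and 49.6 CPM (0.16 ± 0.11, adjusted p 0.399). Neither pair of groups was separated. FAS overlaps ACTA2 on the opposite strand, and ACTA2 rose by 1.23 ± 0.16 on the log2 scale (adjusted p 0.000341), from 3.61–4.80 to 8.78–10.3 CPM.

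**Figure D3:**
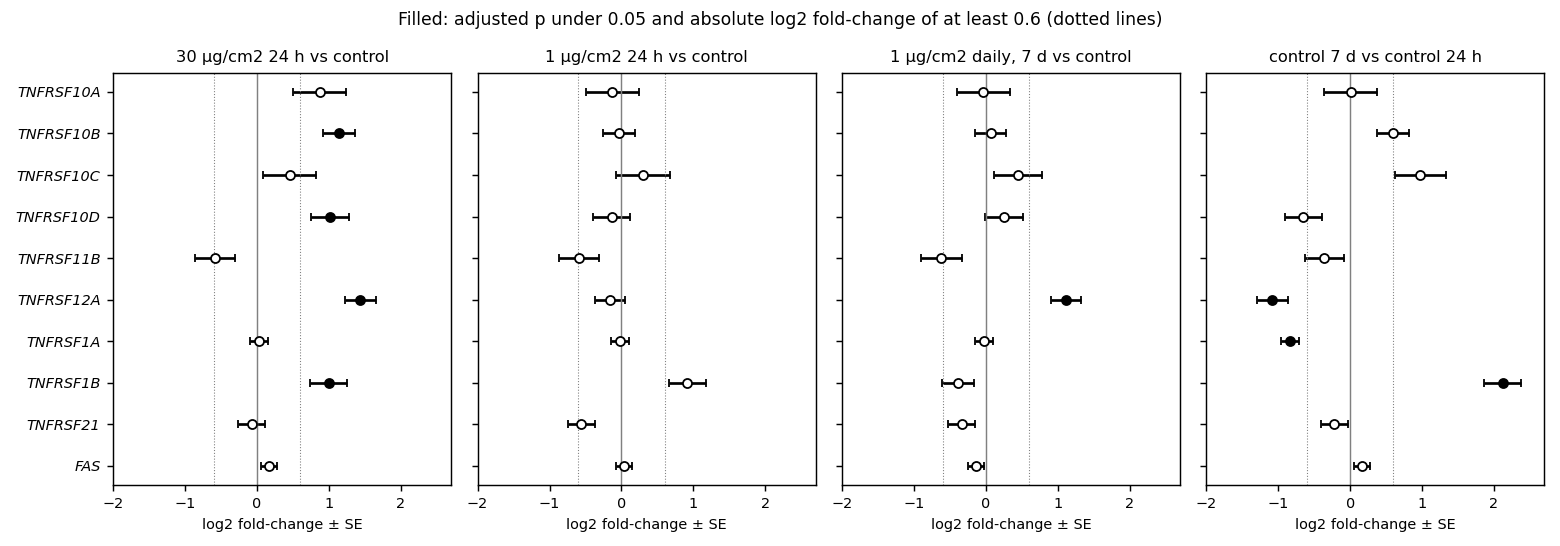
Log2 fold-change with its SE (x axis) of the 10 receptor genes (y axis) in 4 comparisons of 3 libraries against 3. Filled points passed both thresholds in edgeR's quasi-likelihood test, and dotted lines mark log2 fold-changes of 0.6 in size. The called genes were 4 after 30 µg/cm2, none after 1 µg/cm2 for 24 h, TNFRSF12A alone after daily exposure, and TNFRSF12A, TNFRSF1A and TNFRSF1B between the controls.

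A single exposure to 1 µg/cm2 for 24 h was compared with the same controls. No receptor gene was called in edgeR's quasi-likelihood test, where 0.0625% of all tested genes were, and DESeq2 and the likelihood ratio test also called 0. At an unadjusted p under 0.05 there were 2, TNFRSF1B and TNFRSF21, beside 534 of the 17599 tested genes. The libraries of 4 of the 10 genes did not overlap, against 4.44% of all tested genes. These 4 were TNFRSF10C, TNFRSF11B, TNFRSF1B and TNFRSF21. TNFRSF1B was at 0.952, 0.942 and 0.843 CPM, above all controls, with a log2 fold-change of 0.92 ± 0.26 and an adjusted p of 0.974. TNFRSF21 was at 34.1, 23.6 and 34.4 CPM, below all controls, with a log2 fold-change of -0.56 ± 0.19. Its ratio to the control of the same experiment was -0.55, -0.57 and -0.56 on the log2 scale. With the replicate block the adjusted p was 0.00874, and the fold-change stayed under the threshold of 0.6. TNFRSF11B had 0.782, 0.595 and 0.632 CPM (-0.59 ± 0.28, adjusted p 1).

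Of the other genes called at 30 µg/cm2, and TNFRSF10A, none was separated from its controls at 1 µg/cm2. TNFRSF12A was at 137, 139 and 133 CPM, with a log2 fold-change of -0.15 ± 0.21, and experiment 2 went up (0.52) where experiments 1 and 3 went down (-0.33 and -0.49). TNFRSF10B had 188, 132 and 180.4 CPM (-0.03 ± 0.22), TNFRSF10D 30.3, 20.8 and 32.6 CPM (-0.14 ± 0.26), and TNFRSF10A 18.3, 8.77 and 16.8 CPM (-0.13 ± 0.37). Each of these groups overlapped its controls.

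Set against 1 µg/cm2, 30 µg/cm2 gave 3 called receptor genes, all higher, beside 7.84% of all tested genes. They were TNFRSF12A (log2 difference 1.59 ± 0.21, adjusted p 0.000533), TNFRSF10B (1.17 ± 0.22, 0.00480) and TNFRSF10D (1.15 ± 0.26, 0.0131). TNFRSF10A differed by 1.00 ± 0.37 with an adjusted p of 0.109, and by 1.00 ± 0.12 with an adjusted p of 5.83e-05 in the fit with the replicate block. TNFRSF1B did not follow this order of doses. Its levels overlapped between the doses, and the difference was 0.08 ± 0.25 (adjusted p 0.889). TNFRSF21 was higher at 30 than at 1 µg/cm2 by 0.49 ± 0.19 (adjusted p 0.123). As in the comparison with controls, TNFRSF10B and TNFRSF10D lost their calls in the fit of the 24-h libraries alone (adjusted p 0.0649 and 0.0849), and TNFRSF10D also without exposed replicate 1 or 3 (0.0656 and 0.0611). This comparison and the previous ones share libraries.

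**Figure D4:**
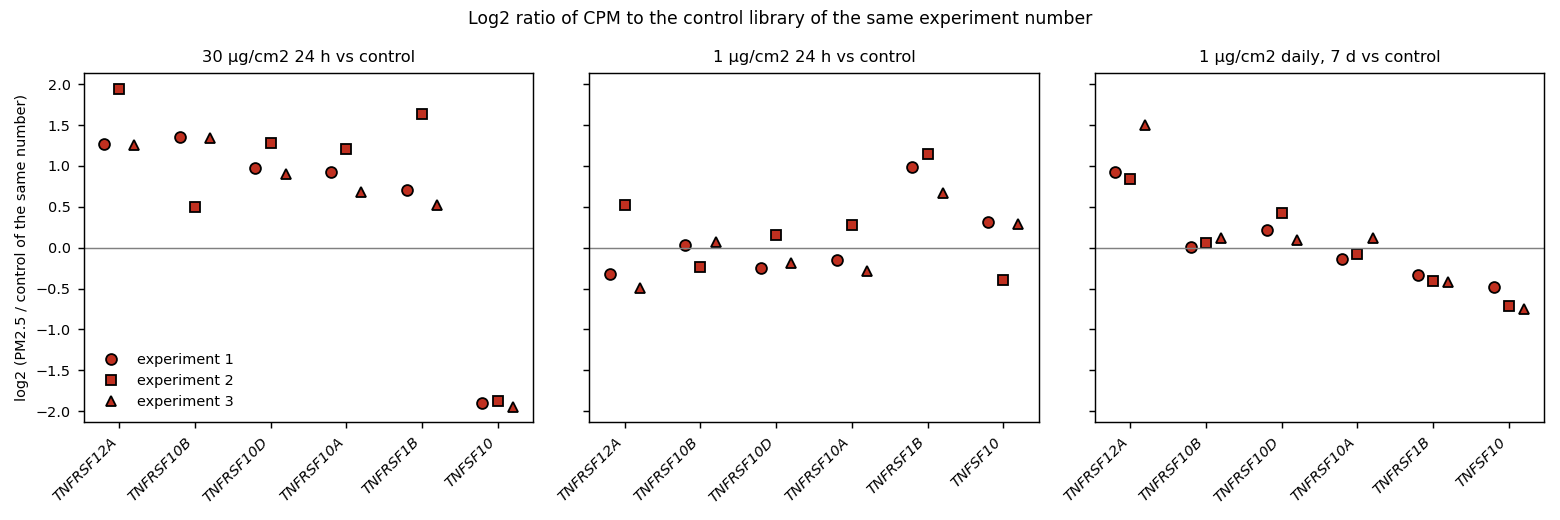
Log2 ratio of CPM to the control library of the same experiment number (y axis) for 5 receptor genes and the TRAIL gene TNFSF10 (x axis), in 3 exposures. Points are the 3 experiments. At 30 µg/cm2 the 5 receptor genes were above 0 in every experiment (lowest 0.49) and TNFSF10 was at -1.87 to -1.95, whereas after daily exposure TNFRSF12A alone was at 0.84 or more.

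Daily exposure to 1 µg/cm2 was compared with the controls of the repeated protocol. TNFRSF12A was the 1 receptor gene of 10 that was called, beside 0.227% of all tested genes. Its controls were at 75.3, 70.5 and 69.1 CPM and the exposed libraries at 143, 127 and 196 CPM. No library of the exposed group came near the controls, and replicate 3, which stood apart in this group, was the highest. The log2 fold-change was 1.12 ± 0.21 with an adjusted p of 0.0477 in edgeR's quasi-likelihood test, and 1.09 ± 0.17 with an adjusted p of 0.00422 in the fit with the replicate block. The ratios within experiments were 0.93, 0.84 and 1.51 on the log2 scale. The adjusted p lies close to the threshold, and leaving out a library ended the call in 12 of 15 cases, 6 of them libraries of the 24-h protocol other than its experiment 2. The log2 fold-change in those cases was 0.91 to 1.24, with adjusted p from 0.0614 to 0.310. Without PM2.5 replicate 3 it was 0.91 ± 0.21 with an adjusted p of 0.227. Without 24-h experiment 2, which enters the shared estimate of the spread, the value was 1.12 ± 0.12 and the adjusted p 2e-05.

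The other 9 receptor genes did not pass after daily exposure. TNFRSF1B went the opposite way from its 24-h values, with 2.09, 2.19 and 2.04 CPM in controls and 1.65, 1.65 and 1.53 CPM after exposure. These groups did not overlap (log2 fold-change -0.39 ± 0.23, adjusted p 0.541). TNFRSF21 had 39.0, 39.1 and 38.5 CPM in controls and 32.3, 30.3 and 30.0 CPM after exposure (-0.33 ± 0.19, adjusted p 0.516). With the replicate block it was at -0.33 ± 0.08 with an adjusted p of 0.0194, and the fold-change stayed under the threshold of 0.6. TNFRSF10B differed little, with 263, 263 and 251 CPM in controls and 265, 274 and 273 CPM after exposure (0.07 ± 0.22, adjusted p 0.938). The groups of 5 receptor genes did not overlap here, against 42.9% of all tested genes. TNFRSF10D had 21.1, 20.2 and 17.4 CPM in controls and 24.4, 27.1 and 18.6 CPM after exposure (0.26 ± 0.26, adjusted p 0.753), with replicate 3 nearest to its controls. TNFRSF10A, TNFRSF1A and FAS were within 0.13 of 0 on the log2 scale (-0.04 ± 0.37, -0.02 ± 0.13 and -0.13 ± 0.11). TNFRSF11B was at 0.684, 0.900 and 0.784 CPM in controls and 0.421, 0.404 and 0.717 CPM after exposure (-0.62 ± 0.28, adjusted p 0.412). TNFRSF10C, at 1.10, 0.803 and 1.07 CPM and at 1.75, 1.56 and 0.749 CPM, overlapped (0.45 ± 0.33, adjusted p 0.646).

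Whether 1 µg/cm2 acted differently in the repeated and the 24-h protocol was tested as the difference of both responses. In edgeR's quasi-likelihood test no gene was called (0% of all tested genes, with 1245 at an unadjusted p under 0.05). DESeq2 called 75 and the likelihood ratio test 13. Of the receptor genes, 2 had an unadjusted p under 0.05. For TNFRSF12A, the response was higher by 1.27 ± 0.30 on the log2 scale in the repeated protocol, with an adjusted p of 0.351. With the replicate block the difference was 1.20 ± 0.24 with an adjusted p of 0.0475, and DESeq2 gave 1.27 ± 0.32 with an adjusted p of 0.0199. Without 24-h experiment 2 it was 1.52 ± 0.18 with an adjusted p of 9.42e-05. For TNFRSF1B, the difference was -1.30 ± 0.35 on the log2 scale, lower in the repeated protocol, with an adjusted p of 0.409 without the block and 0.0863 with it.

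The controls of both protocols differed from each other in 3 receptor genes, beside 21.9% of all tested genes. Time in culture, plating density, the daily washes and the batch cannot be told apart here, and since the numbers mark batches within a protocol no block could be fitted. TNFRSF12A was lower in the repeated protocol, at 69.1 to 75.3 CPM against 96.8 to 186 CPM (log2 difference -1.08 ± 0.21, adjusted p 0.00192). The daily exposed cells thus stood at 127 to 196 CPM, within or just above the range of the 24-h controls. TNFRSF1A was lower as well, at 73.9 to 76.8 against 131 to 141 CPM (-0.83 ± 0.13, adjusted p 0.000353). TNFRSF1B was higher, at 2.04 to 2.19 against 0.424 to 0.531 CPM (2.12 ± 0.25, adjusted p 6.03e-05). The 3 calls held in all 22 alternatives that could be fitted. TNFRSF10B (log2 difference 0.60 ± 0.22, adjusted p 0.0563), TNFRSF10C (0.98 ± 0.36, 0.0555) and TNFRSF10D (-0.65 ± 0.26, 0.0780) did not pass in edgeR's quasi-likelihood test. The likelihood ratio test called TNFRSF10C (adjusted p 0.0459) and DESeq2 called TNFRSF10D (0.0478). TNFRSF10D gained a call in 6 of 22 alternatives, and was at -0.92 ± 0.13 with an adjusted p of 1.11e-05 without 24-h experiment 2.

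Sequence upstream of the start site is shown for the 2 TNF receptors, whose levels moved in opposite directions between the protocols and of which TNFRSF1B alone was called after exposure. The sequences are from RefSeq on GRCh38.p14, and windows of 4 of the 10 genes were analysed here (TNFRSF1A, TNFRSF1B, TNFRSF21 and FAS). Each is written 5′ to 3′ on the gene's strand, lies before the gene as annotated in the count table, and has the letters that match a searched motif in capitals.
TNFRSF1B (GRCh38.p14, chr1:12166741-12166990, plus strand): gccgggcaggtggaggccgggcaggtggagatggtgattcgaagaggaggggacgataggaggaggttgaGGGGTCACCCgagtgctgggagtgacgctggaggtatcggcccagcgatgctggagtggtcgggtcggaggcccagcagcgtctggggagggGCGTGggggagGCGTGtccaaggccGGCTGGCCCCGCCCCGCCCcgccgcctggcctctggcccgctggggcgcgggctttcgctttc
TNFRSF1A (GRCh38.p14, chr12:6342115-6342326, minus strand): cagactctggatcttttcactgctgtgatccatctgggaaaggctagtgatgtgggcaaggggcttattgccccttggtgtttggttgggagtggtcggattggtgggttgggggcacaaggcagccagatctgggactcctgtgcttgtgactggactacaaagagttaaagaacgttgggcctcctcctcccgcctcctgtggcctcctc
Over the 250 bases before the start site, 7 motifs were searched on both strands. They were the AP-1 site TGANTCA, the antioxidant response element TGACNNNGC, the core of the xenobiotic response element GCGTG, the ATF4/CHOP element by the letters TGATGNAA, the NF-kappaB pattern (GGG and CC with any 5 bases between them), the TEAD site GGAATG and the SP1 site GGGCGG. TNFRSF1B held GCGTG, the NF-kappaB pattern and GGGCGG, which occur in 32.2%, 54.4% and 42.6% of 35116 promoter windows of this length. One of its NF-kappaB matches lies at positions -180 to -171 from the start site, and the other two overlap each other and the GGGCGG matches between positions -63 and -45. The search window of TNFRSF1A runs past the 212 bases shown into the gene as annotated in the count table, and held none of the 7 motifs. The window of TNFRSF21 held the same 3 motifs as that of TNFRSF1B, and the window of FAS held TGANTCA, TGACNNNGC, the NF-kappaB pattern and GGGCGG, of which the first 2 occur in 6.57% and 10.9% of windows. The ATF4/CHOP and TEAD letters, found in 3.14% and 11.9% of windows, were in none of the 4. A match of letters is a description only.

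The ligands were read in the same libraries. Of 19 ligand genes 11 had enough counts to be tested, and after 30 µg/cm2 2 rose, 2 fell and 7 did not pass, where 8.07% of all tested genes were called (median log2 fold-change -0.13, beside 0.03 over all tested genes). TNFSF10, the TRAIL gene, fell. It was at 4.55, 12.9 and 5.35 CPM in the controls of experiments 1, 2 and 3 and at 1.22, 3.54 and 1.39 CPM after 30 µg/cm2. Experiment 2 was high in both groups, and each exposed library was below each control. The log2 fold-change was -1.87 ± 0.44 with an adjusted p of 0.0146, and the ratios within experiments were -1.90, -1.87 and -1.95 on the log2 scale. The call was lost in 4 of 24 alternatives, the fit of the 24-h libraries alone and those without control replicate 2 or exposed replicate 1 or 3 (adjusted p up to 0.0911). The TRAIL gene and 2 of its receptor genes thus moved in opposite directions. TNFSF15, the ligand of the death receptor encoded by TNFRSF25, was at 0.188 to 0.319 CPM in controls and 0.590 to 1.71 CPM after exposure (2.23 ± 0.39, adjusted p 0.00251). These values rest on 4 to 10 counts per control library and 17 to 52 per exposed library. TNFSF9, the ligand of TNFRSF9, rose by 0.72 ± 0.19 (adjusted p 0.0274), from 3.86–4.43 to 6.13–7.39 CPM. TNFSF13, known as APRIL, fell by 0.78 ± 0.22 (adjusted p 0.0401), from 4.28–5.14 to 2.27–3.02 CPM. The calls of TNFSF9 and TNFSF13 were lost in 7 and 11 of 24 alternatives (adjusted p up to 0.122 and 0.168). Both were lost without any of the 3 control libraries or without exposed replicate 1 or 3. They were also lost in the fit of the 24-h libraries alone and without the filter on low counts. The call of TNFSF15 was kept in 24 of 24.

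TNFSF12, the gene for TWEAK and thus for the ligand of Fn14, was at 4.06, 7.82 and 5.67 CPM in controls and at 1.84, 5.38 and 1.44 CPM after 30 µg/cm2. The exposed library of experiment 2 lay above 1 control. The log2 fold-change of -1.002 ± 0.42 had an adjusted p of 0.157, and with the replicate block it was -1.11 ± 0.24 with an adjusted p of 0.00474. Leaving out 24-h experiment 2, it was -1.56 ± 0.26 with an adjusted p of 0.000196. APP, whose product binds the receptor encoded by TNFRSF21, was at 649 to 763 CPM in controls and 549 to 679.6 CPM after exposure (-0.17 ± 0.16, adjusted p 0.579). TNF and FASLG were listed at 0 in every library, and TNFSF11, the gene for RANKL, had at most 3 counts. The paper states that levels of TNF increased at 30 µg/cm2, which these counts do not show. The 0 of TNF is not read as absence here, and its cause was not tested. DDX39B and CSNK2B, genes that cells in general use, lie 45 and 90 kb from it. They were listed at 0 and 1 count over all libraries. BAG6, 63 kb away, had 2164 to 3647 counts per library. DDX39B, CSNK2B and BAG6 were chosen after their values were seen.

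Of 19 other receptor genes of the superfamily 14 were tested, and after 30 µg/cm2 3 rose and none fell, where 8.07% of all tested genes were called (median log2 fold-change 0.38). NGFR, the gene for the low-affinity neurotrophin receptor, was at 4.79, 4.61 and 5.99 CPM in controls and 31.8, 21.4 and 33.0 CPM after exposure (2.48 ± 0.25, adjusted p 4.72e-05). EDA2R, a receptor for an ectodysplasin form, was at 2.38, 1.65 and 2.37 CPM in controls and 9.01, 2.46 and 8.71 CPM after exposure, with experiment 2 barely above the controls (1.65 ± 0.41, adjusted p 0.0201). TNFRSF9, the receptor 4-1BB, had 0.241, 0.377 and 0.0354 CPM in controls and 0.822, 0.798 and 0.862 CPM after exposure (1.95 ± 0.52, adjusted p 0.0272), and the lowest of these values is a single count. NGFR kept its call in 24 of 24 alternatives. EDA2R lost it in 6 of 24 and TNFRSF9 in 5 of 23 (adjusted p up to 0.111 and 0.120). Both lost it in the fit of the 24-h libraries alone and without control replicate 1 or 3 or exposed replicate 1 or 3. EDA2R also lost it without control replicate 2. Against 1 µg/cm2, these 3 were also higher at 30 µg/cm2 (log2 difference 1.68, 1.42 and 2.17), TNFSF10 was lower (-1.82 ± 0.44, adjusted p 0.0174) and TNFRSF25 was lower (-0.91 ± 0.25, adjusted p 0.0356). TNFRSF25 overlaps PLEKHG5 on the same strand, so its reads are uncertain. Between the doses, EDA2R lost its call in 13 of 24 alternatives, TNFRSF25 in 8 of 24, TNFRSF9 in 5 of 23 and TNFSF10 in 3 of 24 (adjusted p up to 0.183, 0.160, 0.0995 and 0.104), each without exposed replicate 1 or 3 among others.

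**Figure D5:**
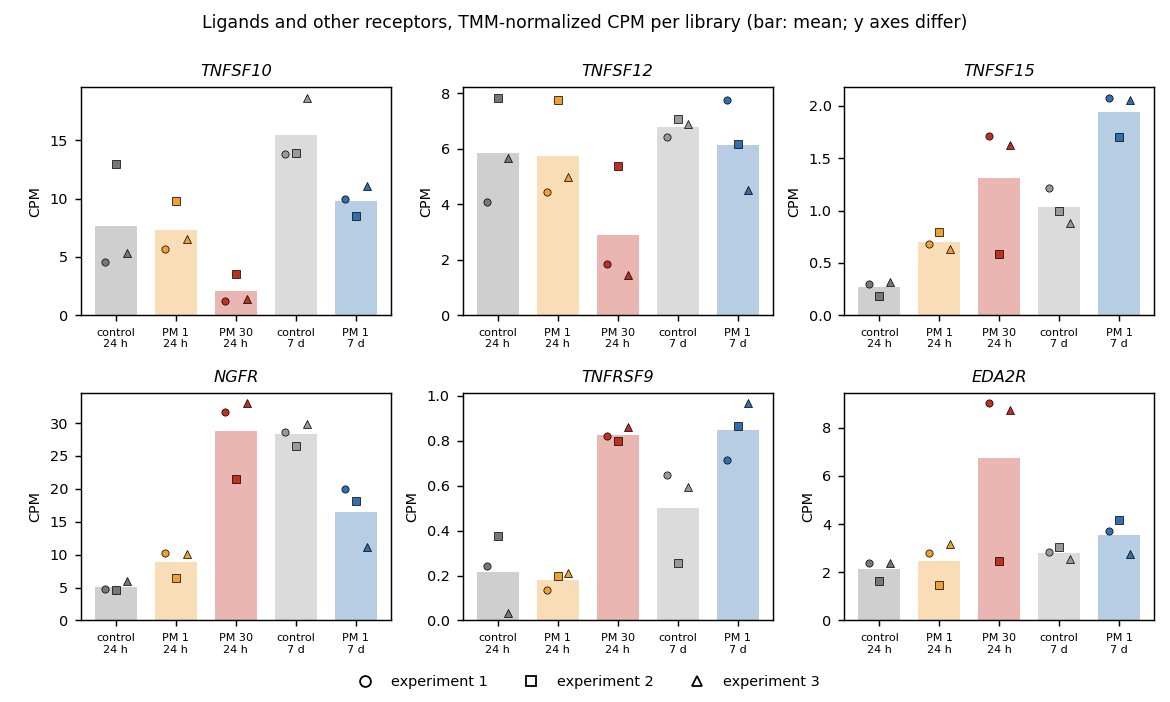
Expression of ligand genes (TNFSF10, TNFSF12, TNFSF15) and of other receptor genes (NGFR, TNFRSF9, EDA2R) in each library (y axis: TMM-normalized CPM, scales differ between panels; x axis: the 5 groups). Points are libraries shaped by experiment number and bars are means of 3. TNFSF10 was at 1.22 to 3.54 CPM after 30 µg/cm2 and at 4.55 to 12.9 CPM in 24-h controls.

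Adaptors, caspases and regulators downstream of the receptors were also read. Of 28 tested genes of this kind, 0 were called after 30 µg/cm2 in edgeR's quasi-likelihood test, with 7 at an unadjusted p under 0.05. Of all 17599 tested genes, 8.07% were called and 4161 had an unadjusted p under 0.05. The log2 fold-changes of the 28 ran from -0.65 to 0.67. DESeq2 and the likelihood ratio test each called 2, CYLD and RBCK1, beside 1829 and 1839 of all tested genes. The fit with the replicate block called 2681 of all tested genes and 3 of the 28. These were BIRC3, an inhibitor of apoptosis that acts in TNF signalling (-0.61 ± 0.16, adjusted p 0.0111), TRAF3, an adaptor (0.71 ± 0.10, adjusted p 0.000261), and RBCK1, a part of the linear ubiquitin ligase (0.62 ± 0.13, adjusted p 0.00298). Leaving out 24-h experiment 2, 6 were called (ADAM17, BIRC3, CYLD, FADD, RBCK1 and TRADD), with FADD at -0.79 ± 0.17 and an adjusted p of 0.00134. Of all genes tested in that fit, 3430 of 17950 were called. Against 1 µg/cm2, the 28 genes also gave 0 calls, with 8 at an unadjusted p under 0.05. Of all tested genes, 7.84% were called and 4311 had an unadjusted p under 0.05. DESeq2 called 0 of the 28 and 1774 of all tested genes, and the likelihood ratio test 1 (TRAF5) and 1767. The replicate block called 5 (ADAM17, RBCK1, TRADD, TRAF3 and TRAF5) and 2737.

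After 1 µg/cm2, for 24 h or daily, none of the tested ligands, other receptors and downstream genes was called in edgeR's quasi-likelihood test, in DESeq2 or in the likelihood ratio test. At an unadjusted p under 0.05 there were 1 ligand, 2 receptors and 0 downstream genes at 24 h, and 2, 1 and 2 after daily exposure. Of all 17599 tested genes, 534 and 2102 had an unadjusted p under 0.05 in these comparisons. The replicate block called 2 after daily exposure, beside 773 of all tested genes. TNFSF10 was at 13.8, 13.9 and 18.6 CPM in controls and 9.92, 8.49 and 11.1 CPM after exposure (-0.65 ± 0.15, adjusted p 0.0170, and 0.566 without the block). NGFR was at 28.7, 26.5 and 29.9 CPM in controls and at 19.99, 18.1 and 11.2 CPM after exposure (-0.82 ± 0.16, adjusted p 0.00948, and 0.186 without the block). Without 24-h experiment 2, NGFR was called at 24 h (0.93 ± 0.21, adjusted p 0.0171), and NGFR, TNFSF10 and TNFSF15 were called after daily exposure. For NGFR the difference between both responses to 1 µg/cm2 was -1.59 ± 0.34 with an adjusted p of 0.351, and -1.62 ± 0.24 with an adjusted p of 0.0386 with the block. This difference was called in 5 of 23 alternatives, among them DESeq2 and the likelihood ratio test.

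Between the controls, 4 of 11 tested ligands, 4 of 14 other receptors and 5 of 28 downstream genes were called. Among all tested genes 21.9% were called. The ligands EDA, TNFSF15, TNFSF4 (OX40 ligand) and TNFSF13B (BAFF) were higher in the repeated protocol, by 1.02 to 1.89 on the log2 scale. The receptors NGFR (2.47 ± 0.25, adjusted p 2.19e-05), TNFRSF18 (2.14 ± 0.62), TNFRSF13C (1.14 ± 0.37) and TNFRSF11A (0.82 ± 0.13), the receptor for RANKL, were higher too. Of the downstream genes, TRAF1 (0.81 ± 0.16) and the deubiquitinase gene CYLD (0.61 ± 0.20) were higher, and FADD (-0.92 ± 0.23), the adaptor of the death receptors, CASP10 (-0.72 ± 0.22) and MLKL (-1.38 ± 0.25), the effector of necroptosis, were lower. CYLD lost its call in 15 of 22 alternatives, among them DESeq2 and the fit without 24-h experiment 2. TNFSF13B lost it in 5 of 22, CASP10 and TNFRSF13C in 4 of 22 each, TNFRSF18 in 3 of 21 and TNFSF4 in 2 of 22. The other called genes kept their calls in all alternatives.

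The likeness of other genes to 3 receptor genes was described by the root mean square difference between centred log2 CPM profiles over the 15 libraries, which share depth and batch. Nearest to TNFRSF12A, whose own profile had a root mean square of 0.837, were SLC35G2 (0.300), CXCL2 (0.330) and CXCL3 (0.334). CXCL2 and CXCL3 encode neutrophil chemokines. Mean CXCL2 was 2.68 CPM in 24-h controls, 7.43 CPM after 30 µg/cm2, 1.59 CPM in controls of the repeated protocol and 3.02 CPM after daily exposure. Among the other receptor genes TNFRSF10D was nearest to it, at rank 26 (0.426). Nearest to TNFRSF10B (0.491) were USP36 (0.144), CAPRIN2 (0.148) and MXD1 (0.164), and nearest to FAS (0.107), which varied least, were RNF20 (0.0617), MARCHF5 (0.0659) and BRAP (0.0695).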

How the data were processed

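RNA-seq libraries (poly-A selected, single-end reads of 50 bases) were made from 15 cultures. The authors aligned the reads to GRCh38 with STAR and deposited counts per gene from featureCounts, without normalization. The submitters' processing notes name hg19, but 99.9% of the genes shared with a GRCh38 annotation overlap it at the table's coordinates, and GRCh38 was used. Annotation, strand and counting options are not given in the sources used here. No row was blank or a summary row, and no column was unassigned.

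Counts were fitted here with edgeR 4.0.16 in R 4.3.3 (filterByExpr, 17599 genes, TMM, quasi-likelihood test in its earlier mode, 1 mean per group, all 15 libraries). The study's methods name this test and both thresholds, and no block. Each SE was taken as the size of the log2 fold-change over the square root of its F. The p-values of the main fit rest on the spread between the 3 independent experiments within groups, estimated jointly over all 15 libraries. That fit leaves out the pairing by experiment number. Because the number marks the experimental batch, numbers pair the libraries within a protocol. The correlation of deviations from group means was 0.201 to 0.721 for the same number at 24 h and 0.121 to 0.181 in the repeated protocol. For different numbers it was -0.68 to 0.453 (mean -0.231) and -0.127 to -0.034 (mean -0.0773), so that the ranges overlapped at 24 h. Deviations within a group sum to 0, so values for different numbers fall where those for the same number rise. DESeq2 1.42.0 and other settings were alternatives. Scripts were tested on simulated data.

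The receptor genes, the other lists and the alternatives were chosen with earlier results of these data known. Named genes are the 10 receptor genes, called genes of the lists, 6 ligands (TNF, TNFSF10, TNFSF12, FASLG, TNFSF11, APP), the 3 nearest profiles (log2 CPM with a prior count of 2) to each of 3 receptor genes, and genes that overlap a receptor gene. Genes called in an alternative alone were named after their values were seen. Promoter windows were read from RefSeq, at the start site nearest to the gene's 5′ end in the count table.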

Additional observations from a re-analysis of the deposited data

Results flagged for a closer look

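The response to 1 µg/cm2 of PM2.5 differed between the repeated and the 24-h protocol for TNFRSF12A in the fit with the replicate block, where the difference was 1.20 ± 0.24 on the log2 scale (adjusted p 0.0475). It was 1.27 ± 0.30 with an adjusted p of 0.351 without the block, and the range of adjusted p over its 23 alternatives was 9.42e-05 to 0.953. Exposed libraries were higher than controls in 9 of 9 pairs in the repeated protocol and in 3 of 9 pairs at 24 h.

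For TNFRSF1B, 9 of 9 pairs of an exposed and a control library were higher at 24 h and 9 of 9 pairs were lower in the repeated protocol, where 4.44% and 42.9% of all tested genes had groups that did not overlap. The difference of both responses was -1.30 ± 0.35 on the log2 scale, with an adjusted p of 0.409 in edgeR's quasi-likelihood test and 0.0225 to 1 over 23 alternatives, and it was called in 1 of them, without 24-h experiment 2. The gene had 9 to 68 counts per library.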

How the results depend on the processing

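The 60 results of the receptor genes were refitted under up to 24 alternatives each, 1404 in all. Of these, 1350 kept their side of the thresholds, 28 lost a call, 26 gained one and 0 of the called ones changed direction. The cause of the changes was not tested. TNFRSF12A at 30 µg/cm2 against controls kept its call in 24 of 24 (log2 fold-change 1.19 to 1.60, adjusted p up to 0.0124).

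With the replicate block, all-gene calls were 2681 at 30 µg/cm2 (1420 without it), 74 at 1 µg/cm2 for 24 h (11), 773 after daily exposure (40), 2737 between doses (1379) and 181 for the difference of responses (0, and 1 receptor gene, TNFRSF12A, with the block). No block could be fitted between the controls. Beyond the calls given in the report, the block changed no call of a receptor gene. With the libraries of 1 protocol alone, these counts were 545, 3, 1029 and 425. TNFRSF12A was then the 1 receptor gene called at 30 µg/cm2 against controls, after daily exposure and between doses, and none was called at 1 µg/cm2 for 24 h. This fit was not run for the difference of responses or the controls, which need both protocols. Without 24-h experiment 2 they were 3430, 378, 1083, 3113 and, for the difference of responses, 1766, with 2 receptor genes (TNFRSF12A and TNFRSF1B).

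Without the filter on low counts, calls were 38 at 1 µg/cm2 for 24 h, 92 after daily exposure and 20 for the difference of responses, with 1 receptor gene (TNFRSF12A) in the last and 5 between the controls (TNFRSF10B and TNFRSF10D added). In the same 3 comparisons DESeq2 called 39, 250 and 75, with 1 receptor gene (TNFRSF12A) in the last, and the likelihood ratio test called 34, 194 and 13.

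Leaving out each library in turn gave 794 to 2706 calls and 2 to 4 receptor genes at 30 µg/cm2 (2 without 24-h control replicate 2), 4 to 45 calls at 1 µg/cm2 for 24 h, 0 to 104 calls and 0 to 1 receptor genes after daily exposure, and 711 to 2715 calls and 2 to 5 receptor genes between doses. It gave 0 to 63 calls and 0 to 1 receptor genes for the difference of responses (1 without 24-h control replicate 2), and 3 to 5 receptor genes between the controls (5 without 30 µg/cm2 replicate 2). The high counts at 30 µg/cm2 and between doses came without 30 µg/cm2 replicate 2 and the low ones without its replicate 1 and 3, respectively. Depth limits TNFRSF10C, TNFRSF11B and TNFRSF1B most, at 8 to 68 counts per library.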
